A study of Mus musculus with 4 samples.

Results

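The clustered histone genes examined here are the mostly short genes that supply histone protein while DNA is being copied. They were taken by symbol from the protein-coding genes of RefSeq on GRCm38 (the build of mm10), as all H2ac, H2bc, H3c and H4c genes with a number and H1f1 to H1f6. The rule found 63 genes among 21887 protein-coding genes: 17 for H2A, 16 for H2B, 12 for H3, 12 for H4 and 6 for the linker histone H1. Of these, 53 lie on chromosome 13 and 10 on chromosome 3.

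The data are 2 lists of ChIP-seq peaks from mouse embryonic fibroblasts (MEFs), primary connective tissue cells of the embryo. All cells belonged to a gain-of-function model that carries an HA-tagged Fbxl10 under the control of doxycycline. The induced cells received doxycycline at 1 µg/ml for 48 hours, and the non-induced cells did not. Chromatin was precipitated with an HA antibody in both, 1 list was analysed per condition, and an input library of each condition is described but was not used here. The deposited lists have 5497 peaks for induced and 10532 for non-induced cells, and their read totals are unknown. The sources used here do not name the promoter or cell type that drives the inducible system. The protocol mentions 3 independent samples, whose relation to the lists is not stated. There was no replicate of a list, so differences between the lists have no replicate check and no test was made. Intervals are exact binomial intervals at 95%, cover counting error only, and treat neighbouring genes as independent although they share peaks.

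Fbxl10, also called Kdm2b, is a histone demethylase that removes methyl groups from histone H3. It binds DNA through a CXXC zinc finger that recognises unmethylated CpG dinucleotides, and it brings a Polycomb complex that ubiquitinates H2A to CpG-rich promoters. Replication-dependent histone genes are transcribed in S phase at the histone locus body. They typically have no introns and yield mRNAs that end in a stem-loop in place of a poly(A) tail. H2A, H2B, H3 and H4 form the core of the nucleosome, and H1 binds the linker DNA between nucleosomes.

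Promoters of histone genes with high peaks and of histone genes far from any induced peak are shown here, because the text returns to their CpG content. For each histone type the member with the highest induced peak comes first. It is followed by the lowest-numbered member without an induced peak within 5 kb, where the RefSeq promoter table held both (for H3 only the marked member is shown). Each sequence runs over the 150 bases before the annotated start of transcription, 5′ to 3′ along the gene on GRCm38.p6, and capitals mark CpG dinucleotides.

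H1f1, chr13:23763518-23763667, plus strand: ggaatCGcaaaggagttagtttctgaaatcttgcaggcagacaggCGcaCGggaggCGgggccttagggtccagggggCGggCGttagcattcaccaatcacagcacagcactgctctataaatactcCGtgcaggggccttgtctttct

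H1f2, chr13:23738657-23738806, plus strand: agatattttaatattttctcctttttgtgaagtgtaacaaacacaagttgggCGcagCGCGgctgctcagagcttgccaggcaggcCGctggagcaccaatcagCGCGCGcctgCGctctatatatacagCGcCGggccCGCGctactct

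H2ac19, chr3:96240375-96240524, minus strand: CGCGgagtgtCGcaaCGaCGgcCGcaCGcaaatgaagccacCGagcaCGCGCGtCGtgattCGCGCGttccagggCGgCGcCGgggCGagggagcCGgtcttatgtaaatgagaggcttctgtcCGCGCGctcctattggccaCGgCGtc

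H2ac1, chr13:23934287-23934436, plus strand: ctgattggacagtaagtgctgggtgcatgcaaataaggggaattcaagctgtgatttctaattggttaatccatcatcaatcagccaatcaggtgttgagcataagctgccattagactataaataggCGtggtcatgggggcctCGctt

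H2bc22, chr13:21787338-21787487, plus strand: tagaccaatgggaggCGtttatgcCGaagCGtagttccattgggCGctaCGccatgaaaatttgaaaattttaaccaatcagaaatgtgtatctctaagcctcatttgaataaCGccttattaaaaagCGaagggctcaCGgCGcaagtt

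H2bc1, chr13:23934157-23934306, minus strand: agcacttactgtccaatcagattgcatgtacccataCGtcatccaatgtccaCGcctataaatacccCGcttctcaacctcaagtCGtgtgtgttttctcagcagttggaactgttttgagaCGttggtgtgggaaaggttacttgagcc

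H3c15, chr3:96239128-96239277, minus strand: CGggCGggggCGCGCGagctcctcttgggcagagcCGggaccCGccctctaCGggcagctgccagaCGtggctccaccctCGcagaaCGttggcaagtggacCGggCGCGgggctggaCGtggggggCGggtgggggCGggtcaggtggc

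H4c18, chr13:21832198-21832347, minus strand: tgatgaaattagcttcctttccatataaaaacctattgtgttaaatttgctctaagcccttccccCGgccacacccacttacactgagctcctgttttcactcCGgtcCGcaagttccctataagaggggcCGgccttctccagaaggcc

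H4c3, chr13:23698459-23698608, minus strand: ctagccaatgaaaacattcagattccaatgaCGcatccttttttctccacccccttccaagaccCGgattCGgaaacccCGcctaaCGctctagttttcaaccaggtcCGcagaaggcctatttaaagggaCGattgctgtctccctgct

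The printed stretches of H2ac19 and H3c15, which share the highest peak, held 25 and 17 CpG. Those of H2bc22, H1f1 and H4c18, which also have peaks, held 9, 7 and 4. Those of H1f2, H4c3, H2bc1 and H2ac1, which lie over 5 kb from any induced peak, held 12, 7, 5 and 2.

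Histone genes were marked by HA-Fbxl10 peaks in induced cells and were bare of peaks in non-induced cells. A gene was counted as marked when a peak lay within 1 kb of either of its ends. In the induced list 40 of 63 histone genes (63.5%, interval 50.4 to 75.3) were marked, where 13.4% of all protein-coding genes were. In the non-induced list 0 of 63 were marked, which allows a share of up to 4.76%, where 1.59% of all protein-coding genes were. The non-induced share of the histone genes is thus not distinguishable from the background at this number of genes. Within 5 kb, 50 histone genes (79.4%, 67.3 to 88.5) had an induced peak against a background of 18.4%, and 3 (4.76%, 0.993 to 13.3) had a non-induced peak against 5.36%.

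Behind these genes stood fewer peaks than genes. Within 1 kb, 29 different induced peaks served the 40 genes, with 7 peaks at 1 histone gene, 19 at 2 and 3 at 3. Within 5 kb the number of different peaks was 31 in the induced list and 2 in the non-induced list. The 2 non-induced peaks had scores of 70.3 (4.83 kb from H4c12) and 59.7 (1.48 kb from the linker histone gene H1f2 and 3.51 kb from H3c3). The score is the authors' own value for each peak, which starts at 50 in the induced list, and it is used in the results to describe and rank peaks within a list. In 1 alternative it also filters both lists at the same value.

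**Figure D1:**
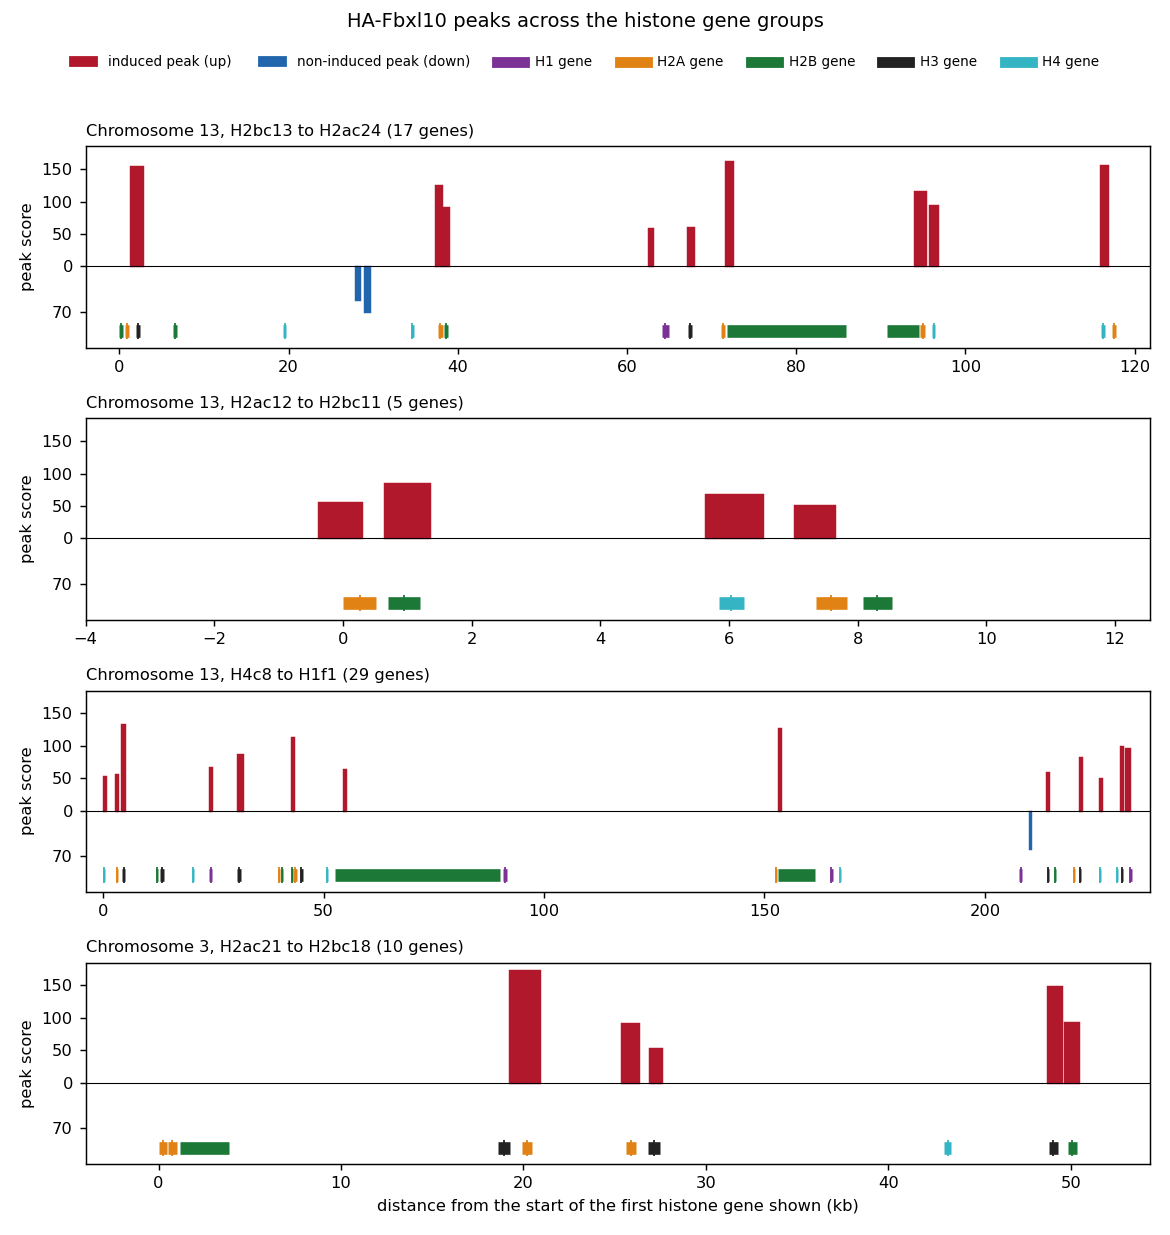
Histone genes (coloured bars along the bottom of each panel) and peaks, by distance in kb from the start of the first histone gene of each group. Bars above the line are induced peaks and bars below it non-induced peaks, with the score as height. The 3 non-induced peaks among the genes lie away from any histone gene by more than 1 kb. The group of H2bc1 and H2ac1 on chromosome 13, with 0 peaks in either list, is not drawn.

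Where members lie more than 100 kb apart they were described as separate groups. The first, from H2bc13 to H2ac24 on chromosome 13 (21715711 to 21833475), held 17 histone genes, of which 13 were marked by 8 induced peaks. The second, from H2ac12 to H2bc11 (22035122 to 22043658), held 5 genes within 8.54 kb, and all 5 were marked by 4 peaks. The third, from H4c8 to H1f1 (23531044 to 23764412), held 29 genes, of which 16 were marked by 12 peaks. The fourth, H2bc1 and H2ac1 (23933725 to 23934913), had 0 marked genes. On chromosome 3 (96219885 to 96270192) 6 of 10 genes were marked by 5 peaks. Peaks differed in height between the groups. Median scores were 121 in the first, 62.2 in the second, 84.5 in the third and 92.9 on chromosome 3.

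Nearly every induced peak inside these groups lay at a histone gene. The groups spanned 411 kb in all and held 31 induced peaks, of which 29 were within 1 kb of a histone gene. The exceptions were a peak with a score of 59.1 that lay 1.06 kb from H1f5 and a peak with a score of 64.3 inside H2bc6, 1.71 kb from its nearer end. In the same span the non-induced list had 3 peaks, and 0 of them were within 1 kb of a histone gene. With 1 kb added on each side of every group, a span of 421 kb, this is 7.36 induced and 0.712 non-induced peaks per 100 kb. The non-induced list was the longer, but no density was measured over the rest of the genome. How much of the span lies within 1 kb of a histone gene was not measured either.

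**Figure D2:**
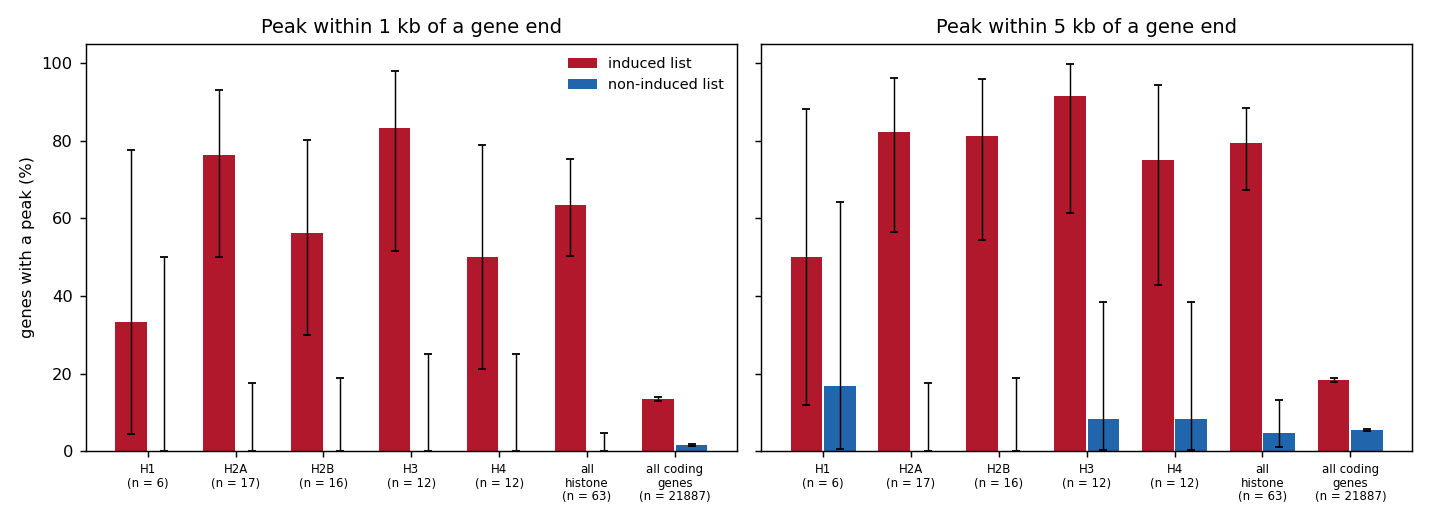
Share of genes with a peak (y axis, %) by histone type, for all histone genes and for all protein-coding genes, within 1 kb (left panel) and 5 kb (right panel) of a gene end. Whiskers are exact 95% binomial intervals, and for a share of 0 the upper limit that a count of 0 allows. Within 1 kb the induced share is 63.5% of histone genes and 13.4% of all protein-coding genes.

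H3 genes, which encode the core histone that Fbxl10 acts on, were marked in 10 of 12 cases (83.3%, 51.6 to 97.9), and 11 had an induced peak within 5 kb. In all 10 a peak touched the gene itself. The highest peak of all, with a score of 173 (rank 248 of the induced list, chromosome 3, 96239113 to 96240769), touched the start of H3c15 and covered H2ac19. H3c10 had a peak of 154 that also lay within 1 kb of H2ac13 and H2bc13. On chromosome 3, H3c13 had a peak of 148 over its whole length, and H3c14 had a peak of 53.0 over 87.5% of its length. The members without a peak within 1 kb were H3c4, 1.47 kb from a peak of 114, and H3c7, 8.03 kb from the nearest.

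H2A genes had a peak within 1 kb in 13 of 17 cases (76.5%, 50.1 to 93.2), and 14 did within 5 kb. For 7 of the 13 the peak touched the gene, and for 6 (H2ac13, H2ac22, H2ac24, H2ac7, H2ac6 and H2ac4) it lay on a neighbour. The highest scores were 173 at H2ac19, 162 near H2ac22 and 156 near H2ac24, and the peaks of the last pair lay over H2bc22 and H4c18. H2ac18 on chromosome 3 had a peak of 92.5 over its whole length. The unmarked H2A genes were H2ac8, H2ac20, H2ac21 and H2ac1.

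H2B genes had a peak within 1 kb in 9 of 16 cases (56.3%, 29.9 to 80.2) and within 5 kb in 13. H2bc22 had the highest, 162 (chromosome 13, 21787339 to 21788180), over the first part of a gene annotated as 14079 bp long. H2bc13 lay 734 bp from the peak of 154 on H3c10. H2bc18 had a peak of 92.9 over its whole length and the peak of 148 on H3c13 beside it. The members marked through a neighbour alone were H2bc13 and H2bc11.

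H4 genes, all coding for the most conserved of the histones, had a peak within 1 kb in 6 of 12 cases (50%, 21.1 to 78.9) and within 5 kb in 9. For 5 of the 6, H4c18, H4c17, H4c9, H4c8 and H4c2, peaks covered the gene from end to end. Their own peaks had scores of 156, 94.5, 68.8, 53.6 and 50.2. H4c1 was marked through the peak of 99.6 over the neighbouring H3c1. H4c14 on chromosome 3 lay 5.27 kb from the nearest induced peak.

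Linker histone genes had the lowest share, with 2 of 6 marked (33.3%, 4.33 to 77.7). H1f1 had a peak of 96.9 over 35.6% of its length, and H1f3 a peak of 66.5 over all of it. H1f5, H1f2, H1f6 and H1f4 lay 1.06, 5.36, 11.03 and 35.7 kb from the nearest induced peak. The intervals of the 5 histone types overlap, so an order among them was not detectable with this number of genes.

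Some histone genes are made in male germ cells in the mouse: H1f6, H2ac1 and H2bc1. None of these 3 had a peak of either list within 5 kb. H1f6 lay 11.03 kb, H2ac1 73.2 kb and H2bc1 72.5 kb from the closest induced peak. With 3 genes, a count of 0 sets no useful limit.

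In all, 13 histone genes had no induced peak within 5 kb. Besides H3c7, H4c14, H1f2, H1f4, H1f6, H2ac1 and H2bc1 these were H2bc9, H4c3, H4c11 and, at one end of the chromosome 3 cluster, H2ac21, H2ac20 and H2bc21. The nearest induced peaks of those 3 chromosome 3 genes lay 18.8, 18.2 and 15.4 kb away. At the 1 kb limit the farthest marked members were H2bc13 at 734 bp and H2ac4 at 730 bp, and the nearest unmarked ones H1f5 at 1063 bp and H2bc3 at 1188 bp. At 5 kb the farthest inside was H2bc14 at 3557 bp, and the nearest outside were H4c14 at 5273 bp and H1f2 at 5359 bp.

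**Figure D3:**
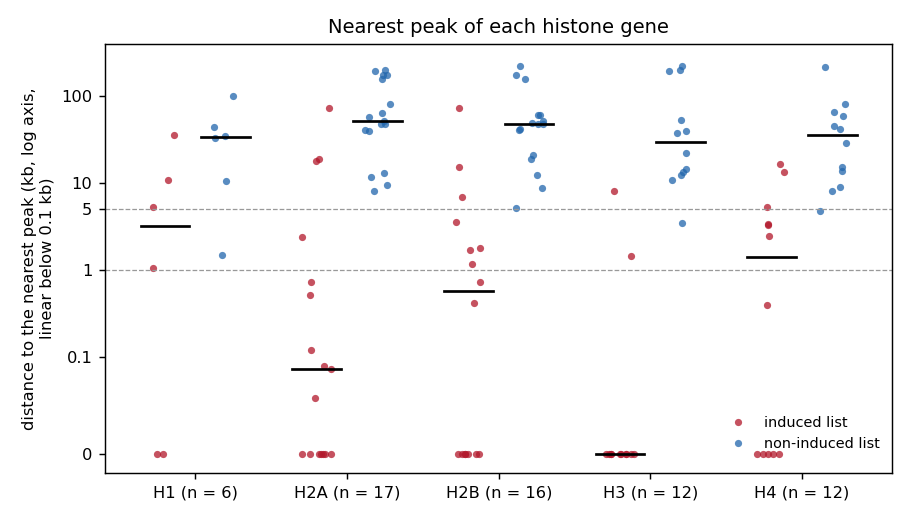
Distance in kb from each histone gene end to the nearest peak (y axis, log scale above 0.1 kb and linear below), by histone type, with the induced list left of the non-induced list. Points are genes, thick lines are medians and dashed lines mark 1 and 5 kb. The median over all 63 genes is 0.058 kb to an induced peak and 42.6 kb to a non-induced peak.

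Distances gave the same contrast between the lists without a limit, but they were not measured for all protein-coding genes. Neighbouring histone genes often had the same nearest peak. The nearest induced peak lay at a median of 0.058 kb from a histone gene end (range 0 to 73.2 kb), and the nearest non-induced peak at 42.6 kb (1.48 to 224 kb). An induced peak was the nearer for 61 of the 63 genes. The other 2 were H4c11, which lay 16.5 kb from an induced and 8.13 kb from a non-induced peak, and H1f2, which lay 5.36 kb from an induced and 1.48 kb from a non-induced peak.

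Induced peaks at histone genes had a higher median score than the whole induced list, but a lower maximum. Their median score was 92.5 (quartiles 61.1 and 125, highest 173), against 78.3 (59.5 and 107, highest 677) for the 2562 induced peaks at the ends of other protein-coding genes and 66.6 for the whole induced list. Scores of 100 or more were reached by 10 of the 29 peaks (34.5%) at histone genes and by 29.9% of the peaks at other gene ends. Peaks that lay within 1 kb of at least 2 histone genes had a median score of 98.3 (22 peaks, 52.1 to 173), and those at a lone histone gene 59.2 (7 peaks, 50.2 to 87.1). These differences were not tested. Widths were alike, with a median of 842 bp at histone genes against 865 bp at other gene ends.

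Peaks sat on the histone genes themselves. Most histone genes are short, with a median annotated length of 492 bp, so a peak can cover a whole gene. However, 5 were annotated as over 1 kb long, which sets their ends far apart. H2bc6, at 37455 bp, had a peak inside it but none within 1 kb of its ends, so it counted as unmarked. Each of the 29 induced peaks overlapped the body of a histone gene, 27 of them of exactly 1 gene, and the midpoint of 25 lay inside a gene. Of the 40 marked genes 31 were touched by a peak, and 22 lay under peaks from end to end. The other 9 were counted through a peak on a neighbour. The strand was known for 58 of the 63 genes. Along these, the midpoints of the 29 peaks lay a median of 272 bp inside the nearest histone gene start (quartiles 151 and 330 bp), and 25 of 29 (86.2%) were downstream of it. The peaks centred inside H3c1 and H2bc4, whose strand was not known, were measured to a neighbour's start and counted as upstream. At other protein-coding genes, 1736 induced peaks had their midpoint within 1 kb of a start, at a median of 109 bp inside (quartiles -201 and 399 bp), and 60.1% were downstream.

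**Figure D4:**
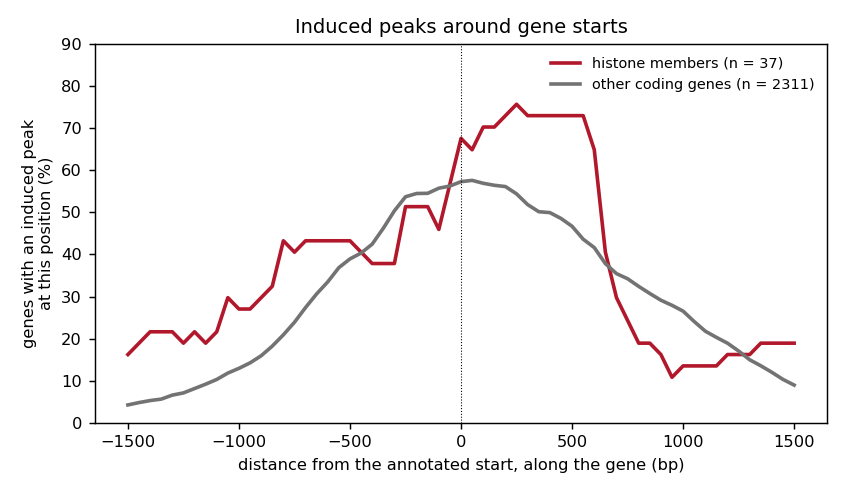
Share of genes with an induced peak at each position (y axis, %) against the distance along the gene from its annotated start in bp (x axis; positive is inside the gene), for the genes with an induced peak within 1 kb of the start. Histone genes (37) reach 75.7% at 250 bp inside the gene and drop to 24.3% at 750 bp. Other protein-coding genes (2311) have their maximum of 57.6% at 50 bp.

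The same could be seen position by position. Of the 37 histone genes with a known strand and an induced peak within 1 kb of the start, 75.7% had a peak over the position 250 bp inside the gene, 67.6% over the start itself and 51.4% over the position 250 bp upstream. At 750 bp inside, which is beyond the end of most histone genes, the share was 24.3%. In 2311 other genes these shares were 54.4%, 57.3%, 53.7% and 34.2%. Peaks on neighbouring histone genes enter the histone values on both sides.

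H2A and H2B genes often stand back to back and share 1 promoter region. Of the members with known strand, 9 pairs had starts 164 to 281 bp apart on opposite strands, and 7 of these pairs had a peak. In 5 of the 7 the centre of the shared promoter was not under a peak, though part of the promoter could be. Peaks covered 49.7% of the bases between the starts of H2bc7 and H2ac7. The share was 37.3% for H2ac12 with H2bc12 and 34.97% for H2ac15 with H2bc15. It was 0% for H2bc13 with H2ac13 and for H2ac11 with H2bc11. At H2ac15 and H2bc15 a peak of 125 covered 90.3% of the H2A gene and a peak of 91.2 the whole H2B gene, and the centre of the 164 bp between them was bare. H2ac12 and H2bc12 had the same layout, with peaks of 55.6 and 85.0 over 57.5% and 100% of the genes. At H2bc7 and H2ac7 the peak of 114 covered all of the H2B gene and 0% of the H2A gene. At H2ac11 and H2bc11 a peak of 52.1 covered 63.1% of the H2A gene and 0% of the H2B gene. At H2bc13 and H2ac13 the peak lay on H3c10 and touched neither. The shared promoters under a peak at their centre were those of H2ac22 with H2bc22 and H2bc23 with H2ac23. The pairs without a peak were H2ac8 with H2bc8 and the germ cell pair H2bc1 with H2ac1.

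Histone genes were marked in a larger share of cases than all genes with the same number of promoter CpG. The RefSeq window of 300 bases (250 before and 50 after the start) was at hand for 58 histone genes. It held a median of 11 CpG (3 to 41), against 13 in 17492 protein-coding genes with a window. Histone genes with an induced peak had a median of 12 (38 genes, quartiles 8 and 17) and those without 9.5 (20 genes, quartiles 8 and 13.5), so the distributions overlapped widely. Over all protein-coding genes the marked ones had 23 and the others 11. With 5 to 9 CpG, 11 of 20 histone genes (55%, 31.5 to 76.9) were marked, against 5.99% (5.07 to 7.02) of all genes in that class. With 10 to 14 CpG it was 10 of 15 (66.7%, 38.4 to 88.2) against 13.6% (11.99 to 15.3), and with 15 to 19 it was 10 of 14 (71.4%, 41.9 to 91.6) against 19.7% (17.96 to 21.5). Of the 3 histone genes with up to 4 CpG 2 were marked (66.7%, 9.43 to 99.2), against 1.73% of all genes in that class, and of the 6 with 20 or more 5 were (83.3%, 35.9 to 99.6), against 24.1%. The intervals do not overlap in any of the 5 classes, though neighbouring histone genes share peaks and back-to-back pairs share part of their windows. The marked genes include the 9 that no peak touched, which were counted through a peak on a neighbour. Of these, H2ac13, H2ac22, H2ac24 and H2ac7 had 15 to 19 CpG and H4c1 had 27. Shares of touched genes alone were not compared, so the gap between the intervals holds only for peaks within 1 kb.

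**Figure D5:**
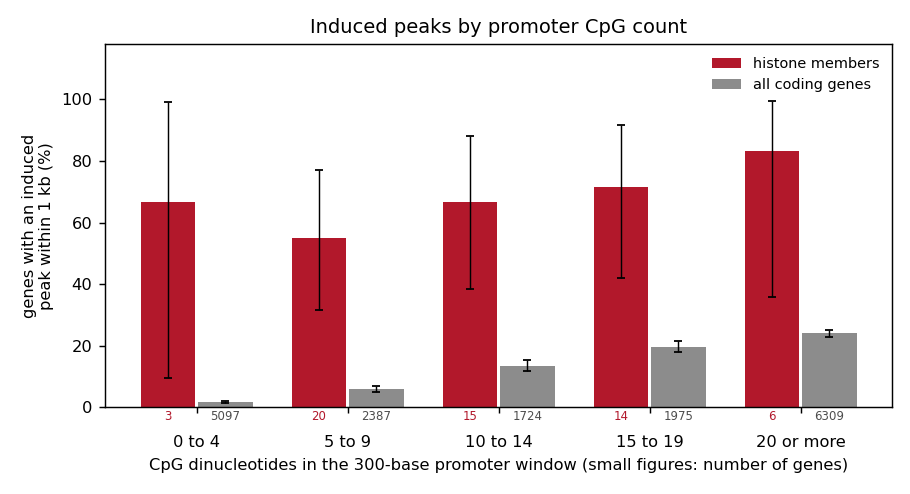
Share of genes with an induced peak within 1 kb (y axis, %) by number of CpG in the promoter window (x axis), for histone genes left of all protein-coding genes. Whiskers are exact 95% binomial intervals and the small figures give the number of genes. With 5 to 9 CpG the shares are 55% and 5.99%.

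The histone promoters with the most CpG were those of H2ac18 (41) and H2ac19 (36) on chromosome 3, followed by H3c15 (28) and H3c14 (27) of the same cluster and H4c1 (27). All of these were marked, H4c1 only through the peak on its neighbour H3c1. Next came H1f4, with 22 CpG and no induced peak within 35.7 kb. At the low end, H2bc15 had 3 CpG and a peak of its own with a score of 91.2, and H4c2 had 4 CpG and a peak of 50.2. H2bc3, also with 3 CpG, was not marked. CpG inside the genes, where the peaks lay, were not counted because no genome sequence was used.

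Promoter elements were searched in the same windows on both strands, and none of the motifs contains another as a whole. CCAAT, the box bound by NF-Y, was in 50 of 58 histone promoters (86.2%), against 39.2% of all promoters. It was in all H1, H2A, H2B and H3 promoters with a window and in 3 of 11 for H4. TATAAA was in 34 (58.6%) against 13.3%. ATTTGCAT, the octamer of H2B promoters, was in 12 (20.7%) against 1.72%, in 6 of 14 H2B and 6 of 17 H2A windows. The windows of the 9 back-to-back H2A and H2B pairs overlap, so 1 site can count for both genes of a pair. A match may thus lie at the partner gene, and the shares were not corrected for this. Histone promoters with and without an induced peak within 1 kb held CCAAT in 86.8% and 85% of cases. They held TATAAA in 52.6% and 70%, and the octamer in 13.2% and 35%. A match is a description of the letters and no evidence of binding.

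Some histone genes are near copies of each other. Among 1653 pairs of histone promoter windows the median identity was 50%, and 2 pairs were above 90%. H4c17 and H4c18 were 99% identical and had peaks of 94.5 and 156. H3c14 and H3c15 were 90.2% identical, and H3c14 lay under a peak of 53.0 while H3c15 was touched by the peak of 173. The sources used here do not say how reads that match both copies were placed, so scores at these genes are uncertain. Identity was not measured inside the genes.

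Genes that act on histone genes or their products were not distinguishable from the background of all protein-coding genes in these numbers. Of 29 genes for the transcription and mRNA processing of histones, 3 (10.3%, 2.19 to 27.4) had an induced peak within 1 kb, close to the background of 13.4%. They were Nfya (128), a subunit of the CCAAT-binding factor, the S phase activator E2f1 (78.1) and Lsm10 (52.2), a part of the U7 snRNP that cuts histone mRNA. The only non-induced peak within 1 kb of these 29 genes was at Slbp (54.5), whose product binds the stem-loop of histone mRNA. This is 3.45% (0.0873 to 17.8), against 1.59% of all protein-coding genes. Npat, the factor that drives histone transcription at the locus body, had 0 peaks in either list within 5 kb. Of 24 histone chaperone genes 6 (25%, 9.77 to 46.7, which includes the background) had an induced peak. They were led by Daxx (116), a chaperone of H3.3, and Ssrp1 (97.0), a subunit of FACT. In the non-induced list 0 of 24 were marked (up to 12.5% allowed, which includes the background of 1.59%).

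Histone genes outside the symbol rule, most of them for replication-independent variants, had an induced peak in 7 of 20 cases (35%, 15.4 to 59.2) and none in the non-induced list (0 of 20, up to 15% allowed), against 13.4% and 1.59% of all protein-coding genes. The highest scores were 113 at H1f0, the linker histone of resting cells, 88.8 at H3f3a, a gene for H3.3, and 79.9 at H2az1, a gene for H2A.Z. H2ax (59.8), Macroh2a1 (55.6), Macroh2a2 (54.3) and H4f16 (51.9) followed. H3f3b, the other gene for H3.3, had a peak of 198 within 5 kb but none within 1 kb. The interval of this list overlaps that of the clustered genes, and the difference was not tested.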

How the data were processed

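The data are ChIP-seq peak lists made with an HA antibody, 1 from induced and 1 from non-induced MEFs. Per the labels' protocols, 7 µg of chromatin and 5 µg of antibody were used. The submitters' processing notes name Bowtie2 and mm10, and the peak names in the files name MACS, with no version. Each deposited list gives positions and a score per peak, written by the authors' caller, whose formula and threshold the sources used here do not give. The list names hold the letters inp, which may stand for a call against input, but the sources used here do not describe one. Lists were assigned to conditions by the marks for with and without in the titles and list names.

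Distances run from the nearest peak edge to either end of each of 21887 RefSeq protein-coding genes (13 mitochondrial genes left out), with limits of 1 kb and 5 kb. Strand came from the RefSeq promoter table. Shares have Clopper-Pearson intervals at 95%, and a count of 0 an upper limit of 3 counts. No test was made. The peak search was tested on simulated data. Members and lists were chosen with earlier results of these data known. By a fixed rule, values were given for the 3 highest members of each type, for all members on chromosome 3, for members near a non-induced peak and for those beside the limits; the groups split at gaps of 100 kb, the divergent pairs and the comparison of positions were chosen after the data were seen. Promoters were compared by global alignment. The list of histone genes outside the rule was written as replication-independent, but the class of H4f16, H2aw and H2bu2 in it is uncertain. Of its 21 names 20 were matched, and of the 30 names of the transcription and processing list 29. The tools were Python 3.11.15, Biopython 1.88, SciPy 1.17.1, pandas 2.3.3, numpy 2.4.6 and matplotlib 3.10.9.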

Additional observations from a re-analysis of the deposited data

How the results depend on the processing

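The number of histone genes with an induced peak was 37 with a window of 500 bp, 50 with 5 kb, 35 when only peaks from the median score of the pooled lists (61.6) upward were kept, 40 with lists of equal size, 38 by peak midpoint and 37 of 58 genes by the annotated start alone. All 37, 35, 40, 38 and 37 were among the original 40, and the 50 held all 40. Over all protein-coding genes the induced share ran from 9.8% (higher scores) to 18.4% (5 kb). The non-induced count stayed at 0 except with 5 kb, where 3 genes and 2 different peaks came in. Over all protein-coding genes the non-induced share ran from 0.845% (higher scores) to 5.36% (5 kb, against 4.76% of histone genes). The non-induced counts were thus not distinguishable from the background. The number of different induced peaks and the induced counts by type and by cluster stayed within 1.5 times under these alternatives. The other gene lists were counted at 1 kb and 5 kb only. The transcription and processing list had 3 and 6 genes with an induced peak and 1 and 4 with a non-induced peak. At 5 kb its induced share was 20.7% (7.99 to 39.7), against 18.4% of all protein-coding genes. The non-induced share was 13.8% (3.89 to 31.7), against 5.36%. Median promoter CpG of marked and other genes was 13 and 9 with higher scores and 12 and 10 with 5 kb. Whether scores can be compared between the lists was not tested. Read depth is unknown, so how depth limits the calling of peaks at the unmarked genes was not tested. No paired analysis was possible because there was 1 list per condition, and for the same reason no replicate could be left out.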

Other observations

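Between the outermost histone genes of each cluster lay 51 other protein-coding genes. Among them, H4bc24, has a histone gene's name that the symbol rule does not take, and had an induced peak of 156 within 5 kb but none within 1 kb. Of the 51, 3 (5.88%, 1.23 to 16.2) had an induced peak within 1 kb, against 13.4% of all protein-coding genes. In the non-induced list 0 did, which allows up to 5.88%, against 1.59%. The vomeronasal receptor genes named Vmn1r made up 36 of the 51, with 0 induced peaks, and 3 of the other 15 (20%, 4.33 to 48.1) were marked. The marked genes were Btn1a1 (68.7), a butyrophilin of milk fat, Abt1 (66.3), a regulator of basal transcription, and Slc17a3 (54.8), a phosphate and urate transporter. Within 5 kb Abt1 had an induced peak of 148 and a non-induced peak of 103, and the non-induced list added Trim38 (58.2) and Vmn1r211 (57.7), a vomeronasal receptor gene.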
